A study of Mus musculus with 3 samples.

Results

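The intercalated disc junction genes are 10 genes whose proteins hold the ends of heart muscle cells together and couple them: Dsp, Dsg2, Dsc2, Pkp2 and Jup of the desmosome, Cdh2, Ctnna3 and Vcl of the adherens junction, and Gja1 and Tjp1 of the gap junction and its rim. Every gene probe that carries one of these names on the array was taken, which gave 23 of 41174 probes and 32 of 43379 spots. The array's gene probes carry 28090 distinct names. Of the 23 probes, 22 passed the signal minimum, at least 1 for each gene, as did 29606 probes of the whole array. Each of 3 arrays, replicates 1 to 3, set heart RNA of Lrrc10-/- mice in Cy5 against heart RNA of WT (Lrrc10+/+) mice in Cy3, by the sample labels. Both genotypes were C57/BL6 mice of 2 months, and each channel held RNA pooled from 2 hearts. The methods describe littermate hearts from a null line backcrossed repeatedly to C57BL/6. The labels call the WT channel a reference pool without saying whether 1 pool served every array, and no array had the dyes swapped.

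The intercalated disc is the end-to-end contact of cardiomyocytes. Desmosomes anchor the intermediate filaments of neighbouring cells through desmosomal cadherins, armadillo proteins and desmoplakin, adherens junctions anchor the thin filaments through N-cadherin, catenins and vinculin, and gap junctions pass current from cell to cell. Mutations in desmosomal genes are a known cause of arrhythmogenic cardiomyopathy, and loss or relocation of connexin 43 from the disc is a known feature of failing myocardium.

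The probes are 60 bases long and sample a short stretch of each transcript. Those of Dsp, Vcl and Ctnna3 shown here are ones on which the swing between arrays was read, with A_52_P242544 as the steadiest of the Dsp probes. They are printed 5′ to 3′ from the array's own annotation, and hold at least 1 reading frame without a stop codon. No capitals are used, since no part of a probe is singled out.
Dsp A_52_P549815: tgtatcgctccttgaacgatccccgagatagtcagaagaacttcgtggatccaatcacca
Dsp A_51_P201884: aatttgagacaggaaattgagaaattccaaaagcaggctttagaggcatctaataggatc
Dsp A_52_P242544: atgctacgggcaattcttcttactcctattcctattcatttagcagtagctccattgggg
Vcl A_51_P297131: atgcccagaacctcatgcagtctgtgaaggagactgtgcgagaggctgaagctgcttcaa
Ctnna3 A_52_P99705: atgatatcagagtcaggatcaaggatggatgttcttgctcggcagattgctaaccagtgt

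Promoter sequence is shown for Gja1 and Dsp as examples of a gap junction gene and a desmosomal gene. The 250 bases before each start site come from RefSeq (GRCm38.p6). Capitals mark a GC box (GGGCGG), an AP-1 element (TGANTCA), an E-box (CANNTG) or a TATA box (TATAAA), each searched on both strands.
Gja1, chr10:56377050-56377299, plus strand: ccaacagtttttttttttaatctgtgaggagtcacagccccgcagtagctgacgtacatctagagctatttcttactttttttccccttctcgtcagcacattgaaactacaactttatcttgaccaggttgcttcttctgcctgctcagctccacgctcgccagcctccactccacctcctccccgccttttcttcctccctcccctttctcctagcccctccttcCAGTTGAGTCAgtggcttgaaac
Dsp, chr13:38151044-38151293, plus strand: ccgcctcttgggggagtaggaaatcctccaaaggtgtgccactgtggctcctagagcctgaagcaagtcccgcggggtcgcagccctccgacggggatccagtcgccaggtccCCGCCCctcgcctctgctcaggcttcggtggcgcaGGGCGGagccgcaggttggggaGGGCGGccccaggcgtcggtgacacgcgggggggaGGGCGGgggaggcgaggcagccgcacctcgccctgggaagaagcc
The Dsp window held 4 GC boxes and none of the other motifs. The Gja1 window held no GC box, and its E-box and AP-1 element overlap. Among the 6 junction genes with a RefSeq promoter entry (Gja1, Dsp, Jup, Ctnna3, Vcl and Tjp1), 5 windows held a GC box, against 32.9% of 27025 promoters of the same length. Only 1 of the 6 windows, that of Gja1, held an AP-1 element (6.87% of all promoters) or an E-box (66.0% of all), and none held a TATA box (13.0% of all). These matches describe the letters of the windows and say nothing of which factors bind there.

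The deleted gene was read first. The probe of Lrrc10, a leucine-rich repeat protein of cardiomyocytes, gave processed signals of 476, 443 and 352 in Cy3 and of 14283, 20828 and 17703 in Cy5. It was therefore brighter in the channel labelled Lrrc10-/- on every array, with a log2 ratio of 5.37 ± 0.41 (SD, n = 3 arrays) and an adjusted p of 2.62e-04 from limma. This goes against the labels, and the place of the probe relative to the deletion is not given in the sources used here. Nppa, which encodes the natriuretic peptide ANF, was brighter in the channel labelled WT on every array, at −0.78 ± 0.14 (SD, n = 3 arrays). By the labels, this direction opposes the one the study gives for adult Lrrc10-/- hearts. Directions are therefore given by channel throughout, where the name Cy5 stands for the channel labelled Lrrc10-/- and Cy3 for that labelled WT. Processed signals had background subtracted and dyes normalized by the scanner software. All 10 cardiomyocyte marker genes stood well above background on every array in either channel, as did 21 of the 22 junction probes (87% of all tested probes). Pairs of arrays shared little of their ratios over the tested probes. Pearson's r lay between −0.18, for the pair of replicates 2 and 3, and 0.10, for the pair of replicates 1 and 2, across probes that are not independent replicates.

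None of the 22 junction probes differed between the channels by limma at an adjusted p under 0.05. Over all tested probes, 0.00676% were called brighter in Cy5 and 0% brighter in Cy3. No junction probe reached an unadjusted p under 0.05 either, against 1.55% of all tested probes in Cy5 and 1.52% in Cy3, and the lowest unadjusted p among the junction probes was 0.159. Without replicate 3 the count at an unadjusted p under 0.05 was 6 of 22, where 6.72% of all tested probes passed, and without replicate 2 it was 2, against 4.82% of all. The adjusted p of every junction probe rounded to 1.00. By the brightest probe, 5 genes had a mean above 0 and 5 a mean below 0. What the arrays did show was a shared change of sign from array to array: on replicate 2 all 22 probes were brighter in Cy3 (49.4% of all tested probes), and on replicate 3 21 were brighter in Cy5 (49.2% of all). On replicate 1, 15 of the 22 were brighter in Cy5 (50.4% of all). Replicate 2 held the lowest of the 3 ratios for 19 of the 22 (38% of all). The probes are few, the members were not tested as a list, and p-values here measure the spread between these 3 arrays. In whole-heart RNA, fewer cells of a type and less RNA per cell cannot be told apart.

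**Figure D1:**
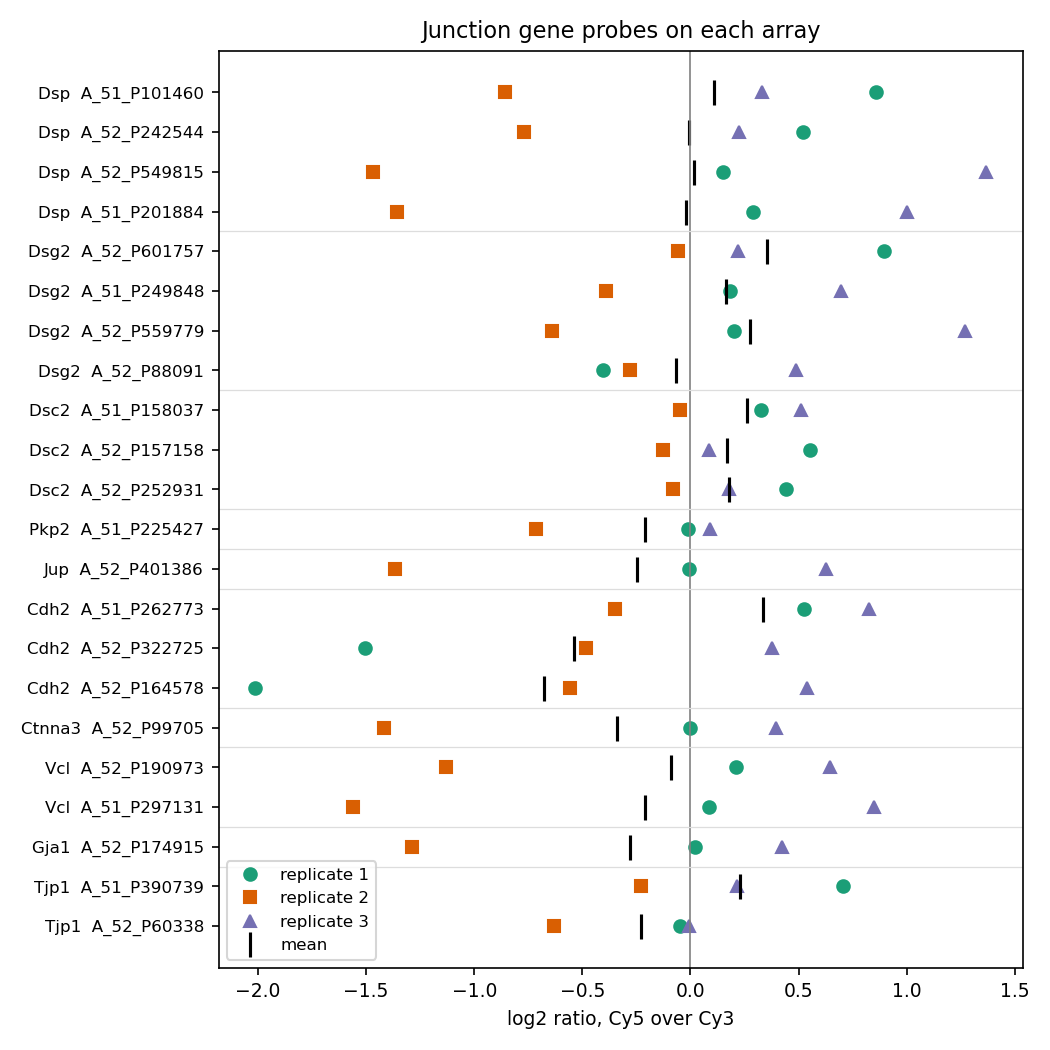
Log2 ratio of Cy5 over Cy3 (horizontal axis) of each of the 22 tested junction probes (rows, by gene and probe name) on replicates 1 (circles), 2 (squares) and 3 (triangles), with the mean over arrays as a black bar. All squares lie left of 0 and all triangles but that of 1 Tjp1 probe lie right of 0, while the means lie between −0.68 and 0.35.

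Dsp (chr13:38151294-38198577 in GRCm38.p6, as are all positions here) encodes desmoplakin, which ties the desmosomal plaque to desmin filaments. Its brightest probe, A_51_P101460, had Cy3 signals of 37708, 144020 and 59628 on replicates 1 to 3, against 68345, 79556 and 75014 in Cy5. The Cy3 signal was by far the highest on replicate 2, where it passed every Cy5 value, and was below all of them on the other arrays. Its log2 ratio was 0.86, −0.86 and 0.33, a mean of 0.11 ± 0.88 (SD, n = 3 arrays) with a 95% interval of −0.62 to 0.84 from limma. The probe A_52_P549815, whose sequence opens the list above, gave 1106, 4013 and 242 in Cy3 and 1227, 1449.7 and 624 in Cy5. Its Cy3 signal on replicate 2 stood far above that on replicate 3, while the Cy5 signals of the same arrays lay closer together. Its ratio ran from −1.47 on replicate 2 to 1.37 on replicate 3, with a mean of 0.02 ± 1.42 (SD), the widest spread of any junction probe. The array p that the scanner software gives to a ratio within an array was 1.91e-09 on replicate 2 and 1.33e-08 on replicate 3, in opposite directions. The probes A_51_P201884 and A_52_P242544 followed the same order of signs, with ratios of 0.29, −1.36 and 1.00 and of 0.52, −0.77 and 0.22. All 4 Dsp probes were thus brighter in Cy5 on replicates 1 and 3 and in Cy3 on replicate 2, and all 4 means lay within 0.11 of 0 after rounding. RefSeq does not list the accession given for any of these probes.

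Dsg2 (chr18:20558074-20604526) and Dsc2 (chr18:20030633-20059554) encode desmoglein 2 and desmocollin 2, the desmosomal cadherins of heart muscle. The brightest Dsg2 probe, A_52_P601757, read 1829.7, 4476 and 2774 in Cy3 and 3408, 4297 and 3233 in Cy5. The channels were alike on replicate 2 and apart on replicate 1, and the mean ratio of 0.35 ± 0.49 (SD, n = 3 arrays) had a 95% interval of −0.17 to 0.88 from limma. Without replicate 1 that mean was 0.081. Another Dsg2 probe, A_52_P559779, went from −0.64 on replicate 2 (array p of 0.00298) to 1.27 on replicate 3 (array p of 1.06e-07). Of the 4 Dsg2 probes, 3 were brighter in Cy5 on replicate 1, 0 on replicate 2 and 4 on replicate 3. The dimmest, A_52_P88091, had ratios of −0.40, −0.28 and 0.49, and its mean of −0.07 ± 0.48 (SD) was below 0. The brightest Dsc2 probe, A_51_P158037, read 478, 866 and 373 in Cy3 and 599.8, 838 and 532 in Cy5. Both channels were highest on replicate 2, where they nearly matched. The ratios of the 3 Dsc2 probes varied little, with means of 0.26 ± 0.29, 0.17 ± 0.35 and 0.18 ± 0.26 (SD, n = 3 arrays). Each was brighter in Cy5 on replicates 1 and 3 and slightly brighter in Cy3 on replicate 2, where the ratios lay between −0.13 and −0.05.

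Pkp2 (chr16:16213345-16272712) and Jup (chr11:100368856-100397839) encode plakophilin 2 and plakoglobin, the armadillo proteins that link the cadherins to desmoplakin. The Pkp2 probe read 30976, 69136 and 26636 in Cy3 and 30724, 42184 and 28372 in Cy5. The channels were nearly equal on replicates 1 and 3, and replicate 2 alone set them apart, with a ratio of −0.71 (array p of 8.75e-04). Its mean was −0.21 ± 0.44 (SD, n = 3 arrays), with a 95% interval of −0.72 to 0.30 from limma. The Jup probe read 774, 2870.0 and 332 in Cy3 and 769, 1112 and 513 in Cy5. Both channels were highest on replicate 2 and lowest on replicate 3, and the swing was wider in Cy3. Its ratio was −0.01, −1.37 and 0.63, with array p of 1.13e-08 on replicate 2 and 0.00317 on replicate 3, and the mean was −0.25 ± 1.02 (SD). Without replicate 2 the mean ratio of Jup was 0.31, and that of Pkp2 was 0.04.

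Cdh2 (chr18:16588877-16809246) encodes N-cadherin, the classical cadherin of the disc. Its brightest probe, A_51_P262773, read 6650.4, 14587 and 5040.4 in Cy3 and 9581, 11469 and 8946 in Cy5. Cy3 was the higher channel on replicate 2 and Cy5 on the others, and the mean ratio was 0.34 ± 0.61 (SD, n = 3 arrays). That mean was 0.090 without replicate 3 and 0.68 without replicate 2. The other probes of Cdh2 were dim and went another way on replicate 1. A_52_P322725 read 147, 92.1 and 91.8 in Cy3 and 51.6, 65.8 and 119 in Cy5, and A_52_P164578 read 80.6, 63.8 and 24.8 in Cy3 and 19.97, 43.3 and 36.0 in Cy5. On replicate 1 their ratios were −1.51 and −2.01, against 0.53 for the brightest probe, so that their means were −0.54 ± 0.94 and −0.68 ± 1.28 (SD). RefSeq lists the accession of the brightest Cdh2 probe and not those of the dim ones, and A_52_P164578 was well above background in Cy5 on 2 of 3 arrays. The probes of Cdh2 disagree in sign, so no single value stands for the gene. Genes whose probes had means of both signs numbered 4, namely Cdh2, Dsg2, Dsp and Tjp1.

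Ctnna3 (chr10:63430098-65003667) encodes alpha-T-catenin, the catenin of heart muscle that binds plakophilin 2 as well as the cadherin complex. Its measured probe read 194, 602 and 176 in Cy3 and 193, 226 and 231 in Cy5. The Cy5 signals lay close together, and the Cy3 signal of replicate 2 stood apart from the other 5 values. Its ratio was 0.00, −1.42 and 0.40, with an array p of 6.78e-09 on replicate 2, and the mean was −0.34 ± 0.95 (SD, n = 3 arrays). The other Ctnna3 probe, A_52_P915485, was not well above background in either channel on any array and was not tested. Vcl (chr14:20929383-21033676) encodes vinculin, which links catenins and integrins to actin. The brighter Vcl probe, A_52_P190973, read 2287, 6654 and 2401 in Cy3 and 2648, 3037 and 3761 in Cy5, and A_51_P297131 read 296, 910.1 and 183 in Cy3 and 313, 308 and 329 in Cy5. As read, the second probe was almost flat across arrays in Cy5, at a span of 1.07-fold, with Cy3 signals on both sides of that level. With each channel centred on the median of its array, its signals spanned 1.58-fold in Cy5 and 3.38-fold in Cy3. The ratios on replicate 2 were −1.13 and −1.56, and those on replicate 3 were 0.65 and 0.85. The means were −0.09 ± 0.93 and −0.21 ± 1.23 (SD, n = 3 arrays), with 95% intervals of −0.84 to 0.66 and −1.17 to 0.75 from limma.

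Gja1 (chr10:56377300-56390419) encodes connexin 43, the main gap junction channel of the ventricle. Its probe is printed 10 times on the array, so its error within an array can be measured. In Cy3 the mean signals on replicates 1 to 3 were 14132, 30847 and 5994, against 14339.5, 12623 and 8048 in Cy5. Cy3 was highest on replicate 2 and lowest on replicate 3, while Cy5 was highest on replicate 1. The log2 ratio over the spots was 0.02 ± 0.04 on replicate 1, −1.29 ± 0.04 on replicate 2 and 0.43 ± 0.10 on replicate 3 (SD, n = 10 spots each). The ranges over spots did not overlap between arrays, at −0.01 to 0.10, −1.33 to −1.195 and 0.34 to 0.69. The SD between arrays was 0.90 around a mean of −0.28, with a 95% interval of −1.01 to 0.45 from limma, so the spread between arrays was far wider than the spread between spots. Spots share their RNA and are not replicates of the comparison.

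**Figure D2:**
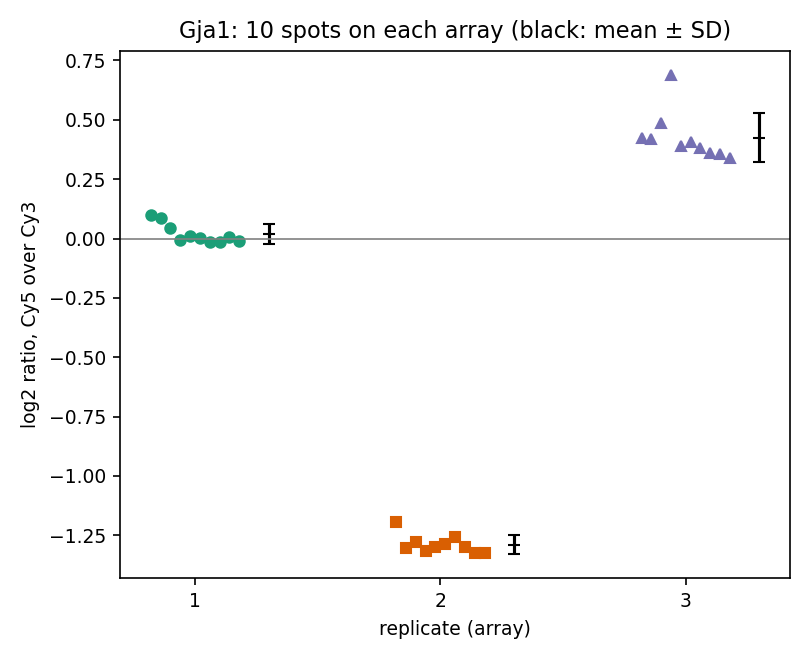
Log2 ratio of Cy5 over Cy3 (vertical axis) of the 10 spots of the Gja1 probe on each of 3 arrays (horizontal axis, replicate), with the mean ± SD over spots in black. The spots of replicate 2 lie between −1.33 and −1.195 and those of replicate 3 between 0.34 and 0.69.

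Tjp1 (chr7:65296165-65527850) encodes ZO-1, a scaffold at the rim of gap junction plaques. Its brighter probe, A_51_P390739, read 914, 2279 and 1535 in Cy3 and 1491, 1944 and 1782 in Cy5, a mean ratio of 0.23 ± 0.47 (SD, n = 3 arrays). Cy3 exceeded Cy5 on replicate 2 alone. The dimmer probe, A_52_P60338, read 79.2, 93.5 and 50.4 in Cy3 and 76.6, 60.5 and 50.1 in Cy5, with ratios of −0.05, −0.63 and −0.01. It was the 1 junction probe of 22 with the same sign on all 3 arrays, and the channels were nearly equal on 2 of them. Over all tested probes, 11% were brighter in Cy3 on every array, and 9.99% were brighter in Cy5 on every array, where the junction probes numbered 0. The selection described in the methods asks every array for a ratio of 1.2 or more in 1 direction, with a p under 0.05, and does not say whether the test that the methods name for statistics in general gave that p. Read here as the array p on every array, it took no junction probe, against 0.405% of all tested probes in Cy5 and 0.51% in Cy3.

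**Figure D3:**
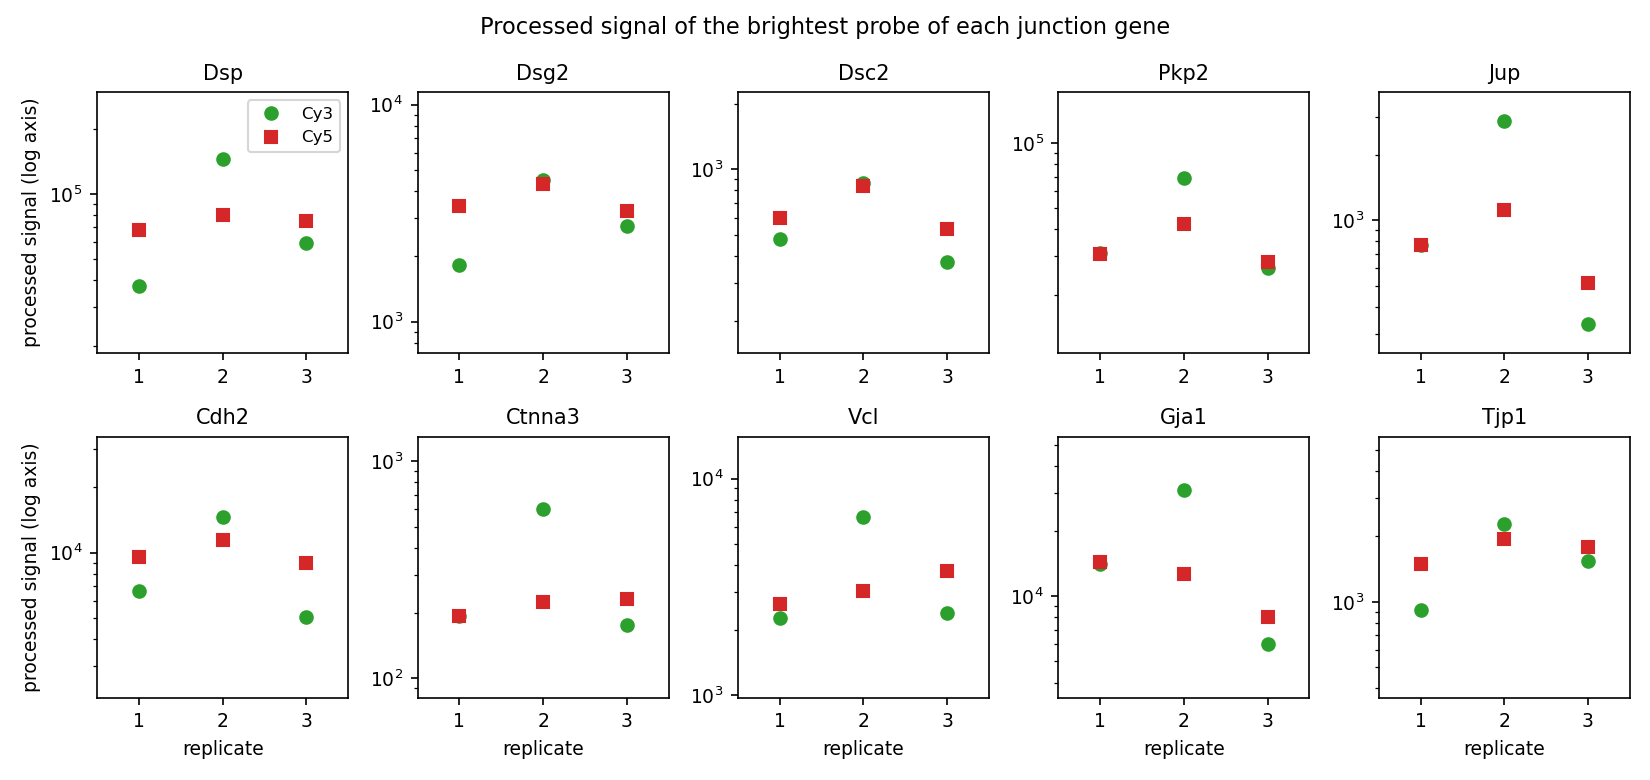
Processed signal (vertical log axis, scanner units, separate for each panel but with the same fold range) of the brightest probe of each junction gene on replicates 1 to 3 (horizontal axis), in Cy3 (circles) and Cy5 (squares). The Cy3 point of replicate 2 is the highest of its panel for every gene, as in Dsp, where it reads 144020 against Cy5 values of 68345 to 79556.

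Array by array, the junction probes moved as a group. The median ratio over the 10 brightest probes was 0.27 on replicate 1, −0.78 on replicate 2 and 0.41 on replicate 3, and the median of their means was 0.01. Over all tested probes the medians were 0.00, 0.01 and −0.01. On replicate 2, 12 junction probes of 8 genes had an array p under 0.05 in Cy3 (18.6% of all tested probes) and 0 in Cy5 (19% of all). On replicate 3, 10 junction probes of 6 genes passed in Cy5 (14.9% of all) and 0 in Cy3 (13.7% of all). On replicate 1, 7 probes passed in Cy5 (12.2% of all) and 2 in Cy3 (13% of all), both of the latter being the dim Cdh2 probes. The pattern of Cy3 on replicate 2 and Cy5 on replicate 3 was read from the signs of the junction probes themselves. It held in 21 of 22 junction probes and in 27.2% of all tested probes. The count of 21 follows from the signs on each array and adds no support to them. With an array p under 0.05 on both arrays the pattern held in 6 junction probes, of Dsg2, Dsp, Jup and Vcl, and in 4.14% of all. These shares describe the probes, several of which share a gene and all of which share the same RNA pools, and were not tested.

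The swing was larger in Cy3 than in Cy5. After each channel was centred on the median of its array, the SD of the log2 signal between arrays had a median over the 22 junction probes of 0.55 in Cy3, against 0.27 in Cy5, and was larger in Cy3 for 20 of them. Over 29576 tested probes with values on every array it was 0.38 in Cy3, 0.22 in Cy5 and larger in Cy3 for 77.7% (77.6% of 29606). The centred Cy3 signal of the Dsp probe A_52_P549815 spanned 11.3-fold from its lowest to its highest array, and its Cy5 signal spanned 1.72-fold. For Jup the spans were 5.87-fold in Cy3 and 1.46-fold in Cy5, and for Gja1 3.49-fold and 1.56-fold. The Dsp probe A_51_P201884 spanned 5.01-fold in Cy3 and only 1.07-fold in Cy5. The exceptions were 1 dim probe each of Cdh2, A_52_P322725, with SDs of 0.52 in Cy3 and 0.82 in Cy5, and of Tjp1, A_52_P60338, with 0.24 and 0.36. The centred Cy3 signal was highest on replicate 2 for 19 of 22 junction probes (37.1% of all tested), and the centred Cy5 signal for 3 (27.7% of all). The larger spread in the channel labelled WT was also present in signals without dye normalization, where the medians were 0.57 in Cy3 and 0.24 in Cy5 over the junction probes. Dye and labelled genotype cannot be told apart without a dye swap.

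**Figure D4:**
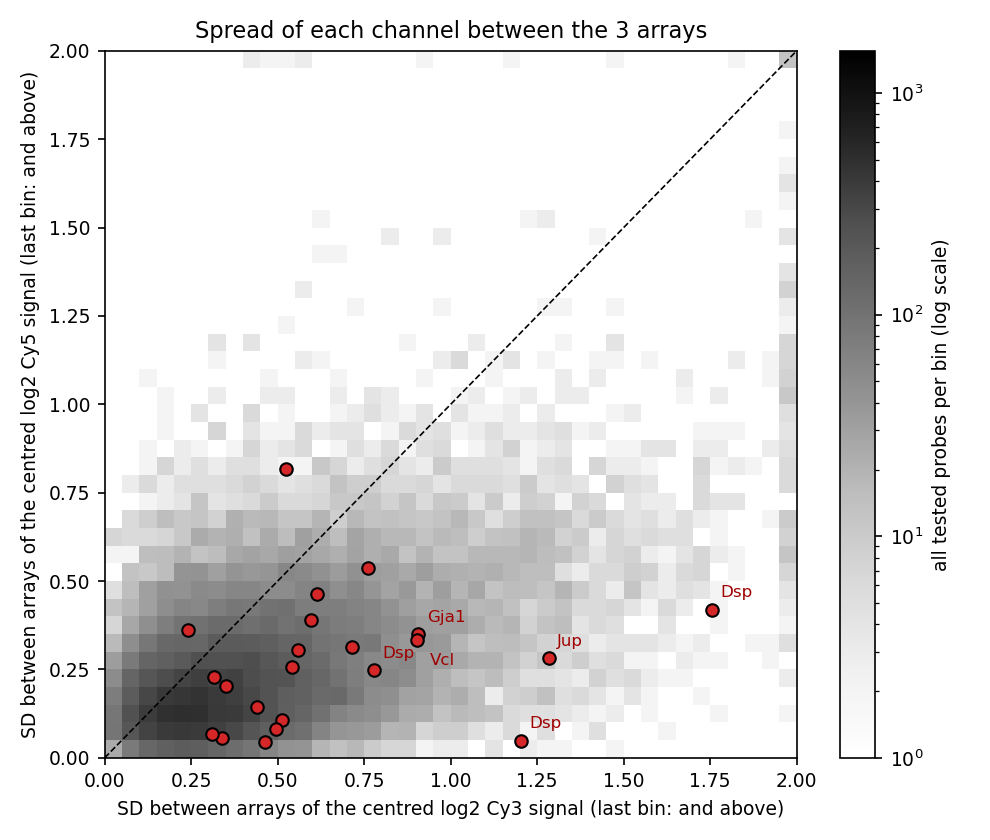
SD between the 3 arrays of the log2 signal centred on each array's median, in Cy3 (horizontal axis) and Cy5 (vertical axis), for the 22 junction probes (red points) over the counts of all tested probes (grey bins, log scale), with equal SDs on the dashed line. All but 2 of the red points lie below the line, and the Dsp probe farthest right has an SD of 1.75 in Cy3 and 0.42 in Cy5.

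The SD of the ratio between arrays had a median of 0.78 over the junction probes, from 0.26 to 1.42, and a median of 0.39 over all tested probes. Of the 22 junction probes, 18 lay above that general median. A mean over 3 such arrays leaves 95% intervals that reach from −1.79 to 1.10 over the junction probes, so the absence of calls leaves room for differences of either sign.

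The other genes of these junctions were read from 4 lists of 86 genes, of which 83 had a probe and 64 a tested one. None was called by limma at an adjusted p under 0.05, and 2 in Cy5 and 1 in Cy3 had an unadjusted p under 0.05 (1.55% and 1.52% of all tested probes). Their medians were 0.26, −0.18 and 0.07 on replicates 1, 2 and 3, and 29 of the 64 were brighter in Cy3 on replicate 2 and in Cy5 on replicate 3 (27.2% of all). By the selection of the methods 1 was taken in each direction (0.405% of all in Cy5, 0.51% in Cy3), Cdh4 in Cy5 and Cldn5 in Cy3. Neither was taken after normexp background correction with loess or with median centring, as given at the end. Cdh4, R-cadherin, read 31.1, 73.0 and 41.4 in Cy3 and 199, 224 and 88.1 in Cy5, higher in Cy5 on every array, with a log2 ratio of 1.79 ± 0.81 (SD, n = 3 arrays) and an adjusted p of 0.901 from limma. Cldn5, the claudin of endothelial tight junctions, read 4398, 6808 and 3882 in Cy3 and 2761, 3586 and 2864 in Cy5, higher in Cy3 on every array. Its ratio was −0.68 ± 0.24 (SD, n = 3 arrays). The endothelial marker list had medians of 0.13, −0.54 and −0.34 on replicates 1, 2 and 3, and its part in the Cldn5 ratio was not tested. Among the 64 genes the ratio kept 1 sign throughout for 9 in Cy5 and 3 in Cy3, against 9.99% and 11% of all tested probes.

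By junction, the other adherens list had the lowest median on replicate 2 and the most genes in the members' pattern, and the lists were not tested against each other. Its 30 tested genes had medians of 0.24, −0.46 and 0.10 on replicates 1, 2 and 3. Of them 17 were brighter in Cy3 on replicate 2 and in Cy5 on replicate 3, a pattern of 27.2% of all tested probes. Xirp2, a disc protein that binds actin, was brighter in Cy5 on every array at 0.46 ± 0.26 (SD, n = 3), and Afdn, which joins nectins to actin, was brighter in Cy3 at −0.33 ± 0.28. Neither passed limma. The other desmosome list, 8 tested genes largely of skin desmosomes, had medians of 0.28, 0.03 and −0.17, and 2 of its genes followed the members' pattern. In it Ppl, periplakin, had a ratio of 0.58 ± 0.51 and Perp one of −0.14 ± 0.07 (SD, n = 3). The gap junction list, 9 tested genes, had medians of 0.26, 0.11 and 0.09, and 2 of its genes followed the pattern. Its steadiest named ratios were those of Gja10, at 0.25 ± 0.03, and Gja3, at 0.19 ± 0.09, both connexins and neither past limma. The list of tight junction and disc membrane proteins, 17 tested genes, had medians of 0.36, −0.12 and 0.18, and 8 followed the pattern. Dlg1, the scaffold SAP97, and Kcna5, a potassium channel it can bind, had ratios of 0.26 ± 0.08 and 0.25 ± 0.40 (SD, n = 3).

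**Figure D5:**
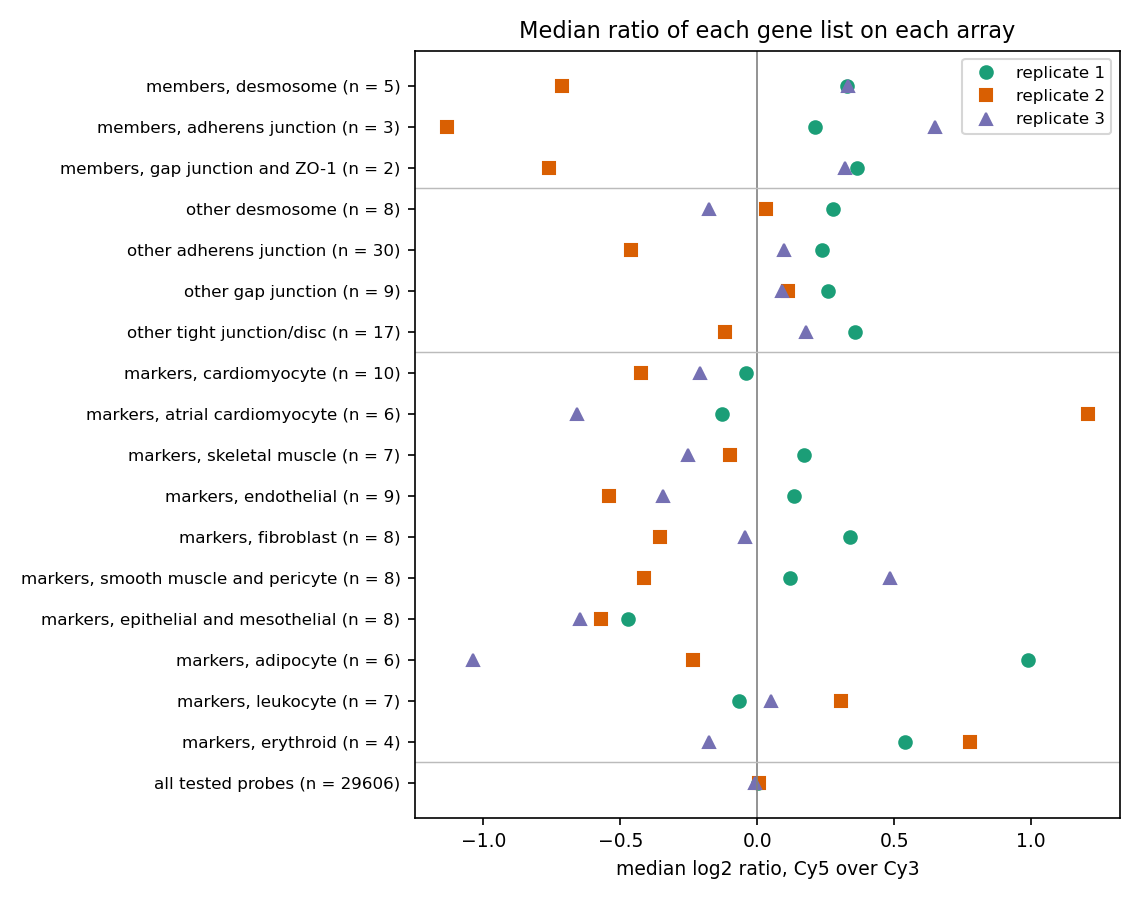
Median log2 ratio of Cy5 over Cy3 (horizontal axis) over the brightest tested probe of each gene in a list (rows, with the number of genes), on replicates 1 (circles), 2 (squares) and 3 (triangles). The members' 3 junction classes have replicate 2 at −1.13 to −0.71 and replicate 3 at 0.32 to 0.65, and the atrial marker list has them in the opposite order at 1.21 and −0.66.

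Marker lists of the cells a heart sample can hold were read on the same arrays. The smooth muscle and pericyte list had medians with the signs of those of the junction genes, 0.12, −0.41 and 0.49 on replicates 1, 2 and 3. Of its 8 genes, 4 were brighter in Cy3 on replicate 2 and in Cy5 on replicate 3. This pattern held in 27.2% of all tested probes, the share to set beside the counts below, and the lists were not tested against each other. Rgs5, Cnn1 and Tagln were brighter in Cy5 on replicate 2, at 1.08, 0.43 and 0.14, and the other 5 were brighter in Cy3, from −1.197 for Myh11 to −0.38 for Cspg4. Its signals summed to 54331, 63589.5 and 43676 in Cy3, against 43352, 64934 and 60019.7 in Cy5. All 8 markers were well above background in every channel, and its part in the junction ratios was not tested. The cardiomyocyte list had medians of −0.04, −0.42 and −0.21, with 2 of 10 genes in the junction pattern. On every array 4 of the 10 were brighter in Cy3 (11% of all tested probes), and the selection took 2 in Cy3 (0.51% of all). In at least 1 channel of an array 8 of 10 were saturated, which limits how far the list can show a difference. The atrial list had medians of the opposite sign, at −0.13, 1.21 and −0.66, and 0 of its 6 tested genes followed the junction pattern. Its brightest gene, Nppa, went against that median on replicate 2, with ratios of −0.89, −0.61 and −0.82. Its signals summed to 117536, 130199 and 96401 in Cy3, against 67812, 102605 and 61621 in Cy5. Fibroblast markers had medians of 0.34, −0.36 and −0.05, with 3 of 8 genes in the pattern. Epithelial and mesothelial markers, cells in which several desmosomal genes are also used, had medians of −0.47, −0.57 and −0.65, negative on every array, with 0 of 8 tested genes in the pattern. Their means ran from −1.44 to 0.31, and the selection took 3 of the 8 in Cy3 (0.51% of all tested probes) and 0 in Cy5 (0.405% of all). The skeletal muscle list had medians of 0.17, −0.10 and −0.25, with 3 of 7 tested genes in the pattern. The leukocyte list had medians of −0.07, 0.30 and 0.05, with 1 of 7 in the pattern. The adipocyte list had medians of 0.99, −0.23 and −1.04, and the erythroid list of 0.54, 0.78 and −0.17, both opposite in sign to the junction genes on replicate 3. In each of these lists 0 tested genes were in the pattern.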

How the data were processed

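The authors deposited the scanner output of each 2-colour array, made with Agilent Feature Extraction 9.1.3.1 per the file headers. Its processed signal intensities, as deposited, are background-subtracted (local background) and dye-normalized array by array (linear and lowess), while the deposited mean and background intensity columns are unnormalized. The deposited log10 ratio divides the processed Cy5 signal by the Cy3 signal, and the deposited p-value belongs to 1 spot on 1 array. A second table of log10 ratios that the authors deposited equals these values, apart from 1 missing value.

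The ratios were converted to log2, outlier spots were dropped (0 among the junction probes) and repeat spots of a probe averaged. Probes with a geometric mean processed signal of at least 20 over both channels and all arrays were tested with limma 3.58.1 in R 4.3.3, as an intercept moderated by eBayes with an intensity trend (two-sided, Benjamini-Hochberg adjusted), after the procedure had been tested on simulated data. With 3 arrays, the smallest p of a sign-flip test is 0.25. The brightest probe stood for a gene in medians over lists. All arrays came from 1 slide and 1 scan, which leaves no batch to compare, and their number limits the precision. The methods call the arrays independent biological replicates, and the labels call the WT channel a reference pool. Should 1 WT pool have served every array, variation among WT hearts would be missing from the test.

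Named were every member, Lrrc10 and, from the other junction lists, every gene called by limma or by the selection, and otherwise up to 2 per list and direction with the largest mean among those of 1 sign and well above background throughout. Marker genes were named outside this rule. They are Nppa, and genes of the smooth muscle and pericyte list, whose medians had the signs of those of the junction genes. The members and lists were chosen with earlier results of these data known. Of 23 junction probes, RefSeq (GRCm38.p6) lists the accession of 16. The place of a probe within its transcript was not mapped. Alternatives covered background correction, dye normalization, filters, the test and each replicate.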

Additional observations from a re-analysis of the deposited data

How the results depend on the processing

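No junction probe was called by limma under any of the alternatives tried, where the lowest adjusted p among the junction probes was 0.0739, with normexp and each array centred on its median, where 6 of them and 30.6% of all tested probes had an unadjusted p under 0.05. In that setting the median over all tested probes was 0.16, and the mean ratio of Gja1 was 0.10, of Jup 0.32, of Pkp2 0.060 and of Vcl 0.33, each opposite in sign to the value reported. With normexp and loess the mean ratio of Jup was 0.053. The signs of the medians over the junction genes were kept, at 0.29, −0.68 and 0.34 on replicates 1, 2 and 3 with normexp and loess, 0.52, −0.38 and 0.83 with normexp and centring, and 0.38, −0.94 and 0.36 with no dye normalization, which was added after seeing the data. Junction probes brighter in Cy5 on all arrays numbered 2 with normexp and loess (16.7% of all tested probes) and 6 with normexp and centring (41.2% of all), where those brighter in Cy3 numbered 2 (11.6% of all). Among the other junction genes, the selection took 0 in Cy5 and 0 in Cy3 in both of these settings. Over all tested probes it took 0.203% in Cy5 and 0.257% in Cy3 with normexp and loess, and 0.274% and 0.0304% with normexp and centring. Other junction genes brighter in Cy3 on all arrays numbered 7 with normexp and loess (15.3% of all tested probes). With normexp and centring 24 were brighter in Cy5 (41.2%) and 6 in Cy3 (11.6%), with a median of 0.29.

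When each replicate was left out in turn, the mean ratio ranged from −0.26 to 0.59 for Dsp, from −0.71 to 0.20 for Ctnna3, from −0.63 to 0.22 for Gja1, from −0.69 to 0.31 for Jup, from −0.36 to 0.040 for Pkp2, from −0.0071 to 0.46 for Tjp1 and from −0.46 to 0.43 for Vcl. Each of these ranges crosses 0, with the positive end of every one from the fit without replicate 2, and the median over the junction genes ranged from −0.25 to 0.42. By the brightest probe alone, as for every gene here, the ranges of Cdh2 (0.090 to 0.68), Dsg2 (0.081 to 0.56) and Dsc2 (0.14 to 0.42) stayed above 0. With normexp and centring these were 0.96, 0.54 and 0.48, and with normexp and loess 0.53, 0.16 and 0.21. The count of junction probes of 1 sign was taken over the fewer arrays left. It ranged from 0 to 15 in Cy5, the latter without replicate 2 (25.8% of all tested probes). In Cy3 it ranged from 1 to 7, the latter without replicate 3 (22.4% of all). The selection took 0 to 1 in Cy5, the latter without replicate 2 (1.94% of all), and 0 in Cy3 (1.48% to 2.25%). For the other junction genes the counts of 1 sign ranged from 11 to 29 in Cy5 (22% to 25.8% of all tested probes) and from 6 to 12 in Cy3 (22.2% to 26.2%), the selection took 1 to 7 in Cy5 (1.94% to 3.96%) and 1 to 4 in Cy3 (1.48% to 2.25%), and limma called 0 to 2, the latter without replicate 3, where it called 411 probes in Cy5 and 134 in Cy3 (together 1.84% of all) and the lowest adjusted p of a junction probe was 0.192. Why these values moved was not tested. With the mean over all tested probes of a gene in place of the brightest, the median over the junction genes was −0.18 against 0.01. The other filters, tests and value sources kept the sign of each junction gene. Where counted, the tests called 0 of 21 to 23 junction probes (0% to 0.0068% of all). The selection took 0 (under the filters 0.306% to 0.411% of all in Cy5, 0.367% to 0.555% in Cy3). Without centring, the spread of the junction probes was 0.77 in Cy3 and 0.27 in Cy5, also added after seeing the data. The fit on ratios within arrays already pairs the channels of each array. No other paired analysis was possible, as no replicate block remained.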
